A study of Homo sapiens with 8 samples.

Results

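Dense hubs of always open chromatin were examined in G401, a human cell line established from a kidney rhabdoid tumour and lacking SMARCB1. Peaks of 4 ATAC-seq lists, 1 per day, were merged into 146099 regions wherever they overlapped by at least 1 bp, and 60786 of these held a peak in every list. Such always open regions were chained where at most 5000 bp lay between neighbours, and a chain of 5 or more was taken as a hub. This gave 322 hubs with 1826 member regions, 3.00% of the always open regions and 1.25% of all merged regions. The members were chosen by the deposited peak calls of all 4 days, so their presence on every day is a description and not a result.

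The cells carried a doxycycline-inducible SMARCB1 and were kept in medium with tetracycline-free serum. Samples were taken without induction, called SMARCB1 -/- in the labels (day 0), and 1, 3 and 7 days into treatment with 1 µg/ml doxycycline, called SMARCB1 +/+, with 2 replicates per day. All 4 groups are the same inducible line, and the labels name no parental line or line without the transgene. The deposited values are 1 list per day, so no difference below has a replicate error, and nothing in the labels says that the replicates were separate cultures. Names of 3 lists give a day, the remaining list was assigned to day 0 by elimination, and every statement on day 0 rests on that. The lists held 80744 peaks on day 0 and 109876, 117606 and 103182 on days 1, 3 and 7, at like depth: the genome-wide background, the measure of depth used here, was 6.04 to 6.73 reads.

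In ATAC-seq a transposase cuts and tags DNA that nucleosomes leave exposed, mostly at promoters, enhancers and insulator sites. Open sites often lie close together, around busy promoters and in clusters of enhancers where several transcription factors bind within a short stretch. SWI/SNF is a remodelling complex that slides or evicts nucleosomes, and SMARCB1 is one of its core subunits. Its loss is the defining lesion of rhabdoid tumours and is known to weaken the complex at enhancers more than at promoters. The question asked here was whether regions without a day 0 peak arose inside hubs that were already open. Genes, promoters and sequences at the hubs were not analysed here, since the tables at hand belong to GRCh38 and the peaks to hg19.

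Most hubs were small. There were 188 hubs of 5 members (58.4%), 85 of 6, 26 of 7 and 23 of 8 or more, and the chain sizes fell off steadily from 37770 regions in no chain. The median hub spanned 15603 bp (5243 to 43968), of which 29.5% was covered by members. Together the hubs spanned 5.17 Mb and held 1504 gaps between members, with a median length of 2366 bp and a total of 3.66 Mb. Members had a median width of 716 bp, against 752 bp for always open regions in no chain. Just inside the limit were hubs of 5 whose longest gap was 4993 bp (chromosome 20, 49330223 to 49348616), 4991 bp (chromosome 9, 136591179 to 136608574) and 4986 bp (chromosome 19, 48811793 to 48829732). Just outside it were chains of 4 with a further always open region 5008 bp away (chromosome 11, 62438624 to 62448841), 5033 bp away (chromosome 10, 111967059 to 111976402) and 5043 bp away (chromosome 15, 76014668 to 76025545).

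**Figure D1:**
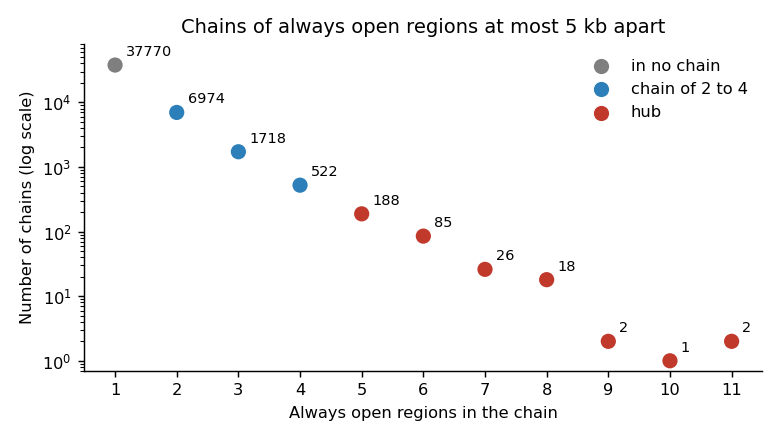
Number of chains (y axis, log scale) by the number of always open regions in them (x axis), with hubs in red, chains of 2 to 4 in blue and regions in no chain in grey. The counts fall from 37770 single regions to 188 hubs of 5 and 2 hubs of 11.

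Hubs were unevenly spread over the chromosomes. Chromosome 19 held 43 hubs with 250 members, 7.99% of its 3127 always open regions (95% Clopper-Pearson interval 7.07 to 9.001). Chromosome 17 followed with 5.02% (4.30 to 5.82) and chromosome 11 with 3.89% (3.24 to 4.62). The share was 1.21% on chromosome 4 (0.826 to 1.72) and 0.924% on chromosome X (0.479 to 1.61). Chromosome 21 held 0 members among 617 always open regions, and a count of 0 allows a share of up to 0.486% when the limit is set at 3 regions (Clopper-Pearson upper bound 0.596%). These intervals treat regions as independent draws, which members of 1 hub are not, so they are too narrow. The rule chains regions by their spacing, so a chromosome dense in always open regions gains hubs by the rule itself. The shares are therefore a description and not a result.

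The hubs with the most members had 11 each. Their heights are given as summit reads, the reads stacked at the highest point of a peak as recovered from the deposited values. One lay on chromosome 1, 210023518 to 210058440, and its members held 63 to 196 summit reads on day 0, with a median of 122. The other lay on chromosome 7, 38370439 to 38414406, with 42 to 134 summit reads and a median of 75. They differed in what surrounded the peaks: the local background that the peak caller set against each summit was 8.15 times the genome-wide background in the median member of the chromosome 1 hub, and 1.95 times in that of the chromosome 7 hub. The median of the authors' fold, which is the summit over that local background, was therefore 2.40 in the former and 5.70 in the latter. A hub of 10 lay on chromosome 19, 55857013 to 55888322, and hubs of 9 lay on chromosome 19, 1259091 to 1288273, and on chromosome 17, 80294099 to 80317347. The first 3 hubs of 8 by covered bases were on chromosome 10, 135121183 to 135150772, chromosome 6, 82726600 to 82758925, and chromosome 17, 57906174 to 57934957.

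**Figure D2:**
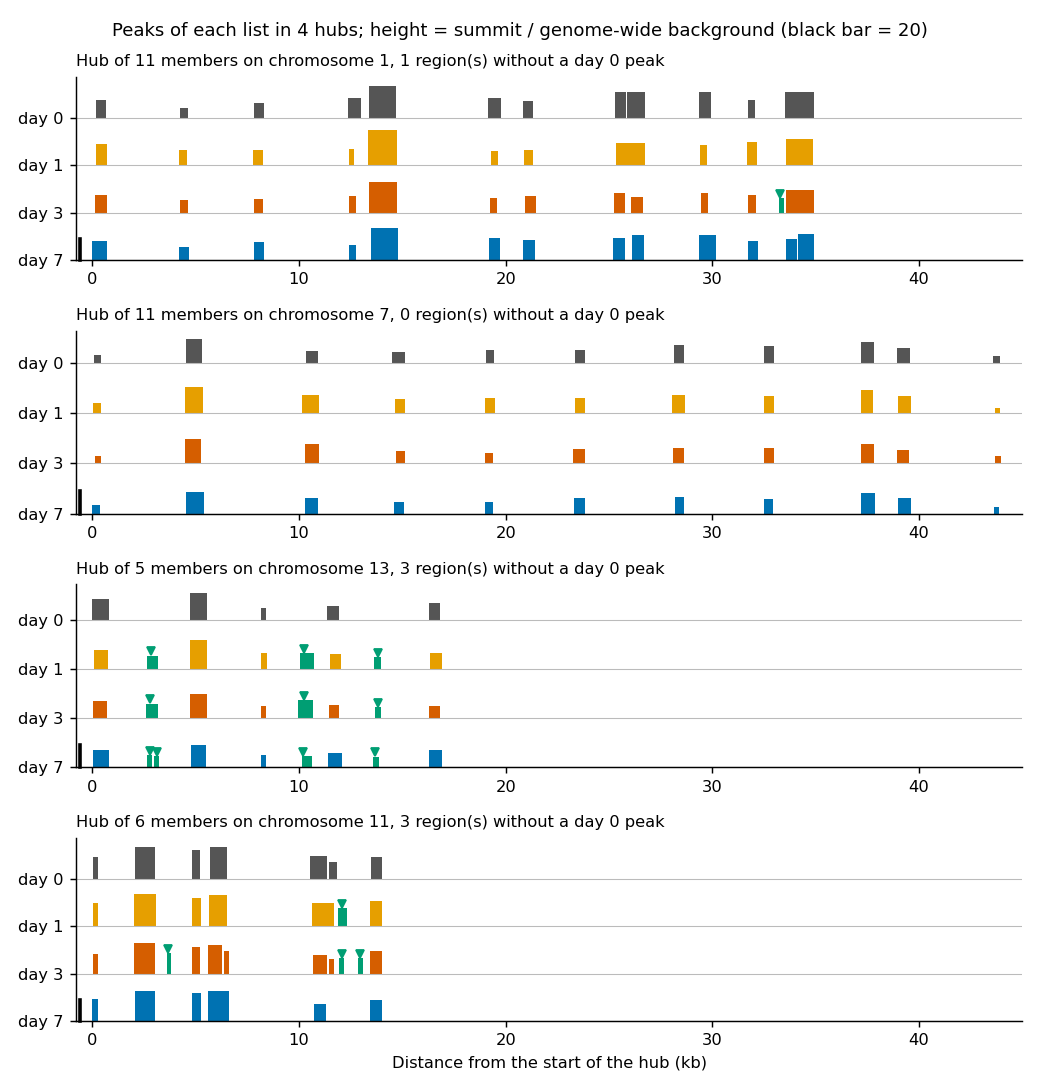
Peaks of days 0, 1, 3 and 7 in the hubs with the most members (chromosomes 1 and 7) and with the most regions lacking a day 0 peak (chromosomes 13 and 11). The x axis is the distance from the hub's start in kb, bars span the called peaks, bar height is the summit over the genome-wide background (black bar, 20), and green bars with triangles are peaks of regions without a day 0 peak. The 11 members on chromosome 7 were called on each day with 0 additions, and the hub on chromosome 13 gained 3 regions on all induced days.

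Regions without a day 0 peak did arise inside hubs, but rarely. Of 67520 such regions in the genome, 130 lay between the first and last member of a hub, which is 0.193% (95% Clopper-Pearson interval 0.161 to 0.229). They fell in 106 of the 322 hubs (32.9%, 27.8 to 38.3): 84 hubs held 1, 20 held 2 and 2 held 3, while 216 held 0. Of the 1504 gaps, 121 held at least 1 (8.05%, 6.72 to 9.54). A peak on each of days 1, 3 and 7 was found in 27 of the 130 (20.8%, 14.2 to 28.8), beside 158 of 878 in chains of 2 to 4 (95% interval 15.5% to 20.7%) and 28.2% of all regions without a day 0 peak. These 27 lay in 25 hubs.

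Set against the length of DNA at risk, hubs gained about as many regions as other stretches beside always open regions. The gaps of hubs held 35.5 regions without a day 0 peak per Mb, the gaps of chains of 2 to 4 held 32.6, and the 5000 bp on either side of always open regions in no chain held 34.3. The last reaches further out: the 130 regions in hubs lay at most 2316 bp from a member. The ratio of hubs to chains of 2 to 4 was 1.09 (exact conditional binomial 95% interval 0.900 to 1.31), and the ratio to the surroundings of lone regions was 1.04 (0.865 to 1.23). Both intervals include 1, so a difference was not detectable with 130 regions, though the intervals also allow 1.31 and 1.23 times as many. When hubs were limited to 6 or more members, the ratio to all shorter chains was 0.849 (0.629 to 1.12). The ratio to chains of 2 to 4 was 0.482 (0.0582 to 1.76) when gaps were limited to 2500 bp, which left 2 such regions in 22 hubs. With gaps of up to 10000 bp, which gave 1574 hubs and 1628 such regions, it was 1.14 (1.07 to 1.22), and there the interval lay above 1. By length of gap, the ratio of hubs to chains of 2 to 4 was 0.594 (0.157 to 1.60) in gaps under 1000 bp, over 4 regions in hubs. It was 0.838 (0.435 to 1.48) in gaps from 1000 bp to below 2000 bp, over 13 regions, and 0.769 (0.438 to 1.27) in gaps from 2000 bp to below 3000 bp, over 17. These 3 intervals include 1. In gaps of 3000 to 5000 bp hubs held 38.7 per Mb and chains 29.7, a ratio of 1.30 (1.04 to 1.62) over 96 regions. That was 1 of 4 length classes compared, and its interval is not adjusted for the others. Over all gaps, regions with a peak on days 1, 3 and 7 numbered 7.38 per Mb in hubs, 5.86 in chains of 2 to 4 and 9.05 around lone regions. For these the ratio of hubs was 1.26 (0.804 to 1.90) to chains of 2 to 4 and 0.815 (0.536 to 1.19) to lone regions.

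**Figure D3:**
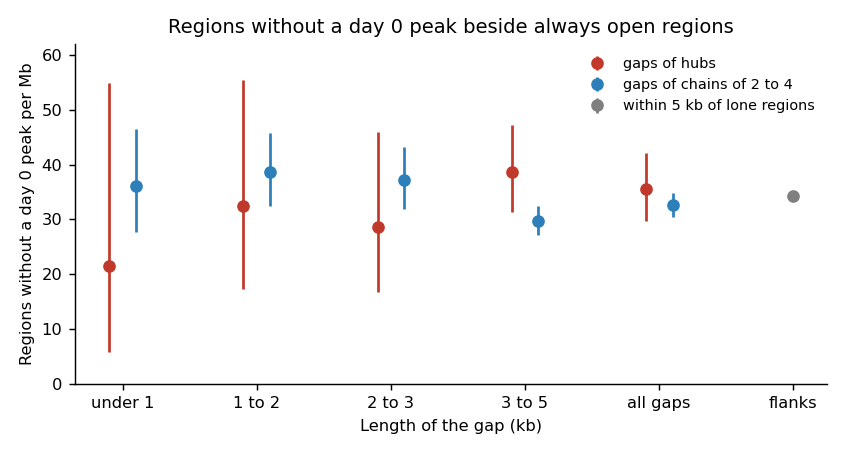
Regions without a day 0 peak per Mb (y axis) in gaps of hubs (red) and of chains of 2 to 4 (blue) by length of gap, over all gaps, and within 5 kb of always open regions in no chain (grey, flanks). Bars are exact Poisson 95% intervals that cover the counting of regions only, and over all gaps hubs stood at 35.5, chains of 2 to 4 at 32.6 and flanks at 34.3 per Mb.

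Regions with a day 0 peak that lacked a peak on some induced day also lay inside hubs. There were 81 of them, or 22.1 per Mb of gap, against 19.1 per Mb in chains of 2 to 4 and 11.4 per Mb within 5000 bp of lone regions. The ratio to the last was 1.93 (1.53 to 2.41), but the stretches around lone regions reach further out than gaps of hubs do. To chains of 2 to 4 the ratio was 1.16 (0.903 to 1.46), an interval that includes 1. Among all 211 regions inside hubs that were not always open, 61.6% (54.7 to 68.2) therefore lacked a day 0 peak, beside 63.0% in chains of 2 to 4 and 79.1% of such regions in the whole genome. Regions with a peak on day 0 alone made up 30 of the 211 (14.2%, 9.80 to 19.7), beside 12.8% in chains of 2 to 4 (11.1 to 14.6) and 7.3% in the genome. These 30 lay in 30 different hubs and were narrow, with a median width of 253 bp and a median fold of 1.92. Those with the highest folds lay on chromosome 19, 50637527 to 50637864 (fold 3.36, 35 reads), chromosome 2, 161055648 to 161055851 (2.57, 49 reads), and chromosome 1, 8143185 to 8143449 (2.42, 41 reads).

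The day of first call of the 130 regions resembled that of regions elsewhere. A day 1 peak was present in 80 (61.5%, 52.6 to 69.9), a further 37 were first called on day 3 (28.5%, 20.9 to 37.0) and 13 on day 7 (10.0%, 5.43 to 16.5). Outside all chains the shares were 57.7%, 30.9% and 11.4%. A single induced list held 64 of the 130 (49.2%, 40.4 to 58.1), against 46.8% outside chains. Later days were less alike. Peaks on days 1 and 3 but not on day 7 were found in 28 of the 130, against 8006 of 66512 outside chains. In chains of 2 to 4 such peaks were found in 146 of 878. They sat a median of 597 bp from the nearest member (2 to 2316), and 57 of them (43.8%) lay within 500 bp of one.

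Peaks that arose inside hubs were tall in reads and low in fold. Their highest induced summit had a median of 13.4 times the genome-wide background, against 10.5 in chains of 2 to 4 and 5.25 outside chains. Their local background was also higher, with medians of 6.63, 4.62 and 1.35 times the genome-wide value in that order. The median of their highest fold was therefore lower, at 2.00 against 2.22 and 3.30. A fold of at least 6, used here for strong peaks, was reached by 0 of the 130 regions, which allows a share of up to 2.31% when the limit is set at 3 regions (Clopper-Pearson upper bound 2.80%), beside 7.26% of all regions without a day 0 peak. In chains of 2 to 4 it was reached by 0 of 878 as well. The highest fold inside a hub was 3.91.

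A peak inside a hub had to be taller to be called at all. At the median local background of hub members on day 0, 69 reads at the summit would have been needed to reach the smallest -log10 p of that list, against 46 in chains of 2 to 4 and 24 at lone regions. On days 1, 3 and 7 the numbers for hubs were 63, 62 and 61. The smallest -log10 p was 4.25 on day 0 and 3.72, 3.64 and 3.88 on days 1, 3 and 7, so day 0 had the strictest limit. How far this moved the numbers per Mb was not tested. A division of the hubs by their median day 0 background gave 60 regions in the lower 161 hubs (30.8 per Mb) and 70 in the upper 161 (40.9 per Mb). No interval was computed for this division, so whether the numbers per Mb differ beyond counting error was not tested.

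Few of the 130 regions were shown to have risen much. For each one the day 0 background was estimated as the mean of its 2 flanking members. This gave the summit needed to reach the smallest -log10 p of the day 0 list, taken as the day 0 limit. Peak width was not part of the limit, and the narrowest of the 130 regions spanned 200 bp. A taller day 0 summit in a narrower stretch may thus also have gone uncalled. The estimate was checked on the 81 regions inside hubs with a day 0 peak, where it differed from the deposited background by a median of -0.025 on the log2 scale (SD 0.17) and would have called 96.3% of them. The highest induced summit reached that day 0 limit in 105 of 130 regions (80.8%, 72.9 to 87.2), was at least 1.5 times the limit in 18 (13.8%, 8.42 to 21.0) and at least 2 times in 4 (3.08%, 0.845 to 7.69). In chains of 2 to 4 the counts were 826, 257 and 86 of 878, or 94.1%, 29.3% and 9.79%. For the 25 regions below the limit, a summit of the same height on day 0 would not have been called there.

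The clearest additions inside hubs were regions with a peak on days 1, 3 and 7. At chromosome 17, 46093443 to 46093928, in a hub of 5, the summit held 140, 146 and 93 reads on days 1, 3 and 7, with folds of 3.41, 3.91 and 2.83. Its highest summit was 2.16 times the estimated day 0 limit. At chromosome 3, 127408916 to 127409487, in a hub of 6, the summit held 46, 73 and 70 reads with folds of 2.75, 3.48 and 3.77, and reached 2.21 times the limit, the highest of the 130. Both were therefore higher on induced days than the estimated day 0 limit, within the error of the estimated background.

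Further sustained additions were lower against their limit. Chromosome 17, 3593274 to 3593848, held 68, 69 and 63 reads, which was 1.40 times the limit at best. Chromosome 19, 50644693 to 50645042, held 46, 54 and 32 reads (1.76 times), and chromosome 7, 5454508 to 5454940, held 125, 138 and 110 (1.58 times). On chromosome 7, 7788879 to 7789274, the reads were 40, 36 and 49 (1.70 times), and on chromosome 12, 76418659 to 76419102, they were 76, 98 and 76 (1.68 times). In these 5 regions the lowest fold of the 3 days was between 2.14 and 2.67.

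The hub that gained most lay on chromosome 13, 100552339 to 100569234, with 5 members spanning 16896 bp. It held 3 regions without a day 0 peak, and each had a peak on days 1, 3 and 7. Their summits held 74, 88 and 66 reads at 100554950 to 100555574, then 88, 110 and 63 reads at 100562274 to 100563053, and 65, 66 and 59 reads at 100565894 to 100566314. All of them held the most reads on day 3, although after scaling for depth the last was highest on day 1, and they reached 1.41, 1.89 and 1.42 times their day 0 limits. The 5 members of the same hub changed little: their summed summit reads, scaled for depth, came to 1.06 times day 0 after 1 day (0.940 to 1.204), 0.887 times after 3 days (0.782 to 1.01) and 0.927 times after 7 days (0.816 to 1.05).

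A hub of 6 members on chromosome 11, 65183859 to 65197894, also held 3 regions without a day 0 peak, of a weaker kind. Its local background was high, at 12.3 times the genome-wide value in the median member. Of its 3 additions, 2 were called on day 3 alone, with 133 and 102 reads, and 1 on days 1 and 3 with 107 and 102 reads. They stood at 0.980, 1.05 and 1.22 times their day 0 limits, so none was far above its limit.

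Hubs with 2 such regions included chromosome 2, 178026439 to 178041349, where 1 of them, at 178036942 to 178037327, held 72 and 88 reads on days 1 and 3 and stood at 2.02 times its limit. The others named by their top fold lay on chromosome 12, 76411750 to 76431793, chromosome 9, 81379125 to 81394394, chromosome 7, 5446939 to 5467997, chromosome 22, 30606292 to 30625707, and chromosome 2, 150874609 to 150892722. By contrast the hub of 11 on chromosome 7, the hub of 10 on chromosome 19 and the hub of 8 on chromosome 10 held 0. The hub of 11 on chromosome 1 held 1, called on day 3 alone with 91 reads, at 0.964 of its limit.

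New peaks were also merged into members, where they do not count as regions of their own. On days 1, 3 and 7, 17, 23 and 14 peaks inside hub members overlapped no day 0 peak, which is 0.892% (0.520 to 1.42), 1.199% (0.761 to 1.79) and 0.730% (0.399 to 1.22) of the members' peaks. At lone always open regions the shares were 1.08%, 0.960% and 1.30%. Members held 1921 peaks on day 0 and 1906, 1919 and 1919 on days 1, 3 and 7. The bases called in members came to 1.04, 1.03 and 0.994 times those of day 0, against 1.10, 1.09 and 1.05 times at lone regions.

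Hub members had the tallest summits and the lowest folds of the always open regions. The median day 0 summit was 18.8 times the genome-wide background in hubs (119 reads), 14.0 in chains of 2 to 4 (89 reads) and 8.99 at lone regions (57 reads). The local background rose more steeply, with medians of 6.60, 3.85 and 1.58. The median fold thus ran the other way, at 2.72, 3.57 and 5.22, and 1.53% of hub members reached a fold of 6 on day 0 against 37.4% of lone regions. The same orders held on days 1, 3 and 7. Members are themselves part of each other's local background, so the fold of a hub member cannot be compared with that of a lone region as a measure of openness.

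**Figure D4:**
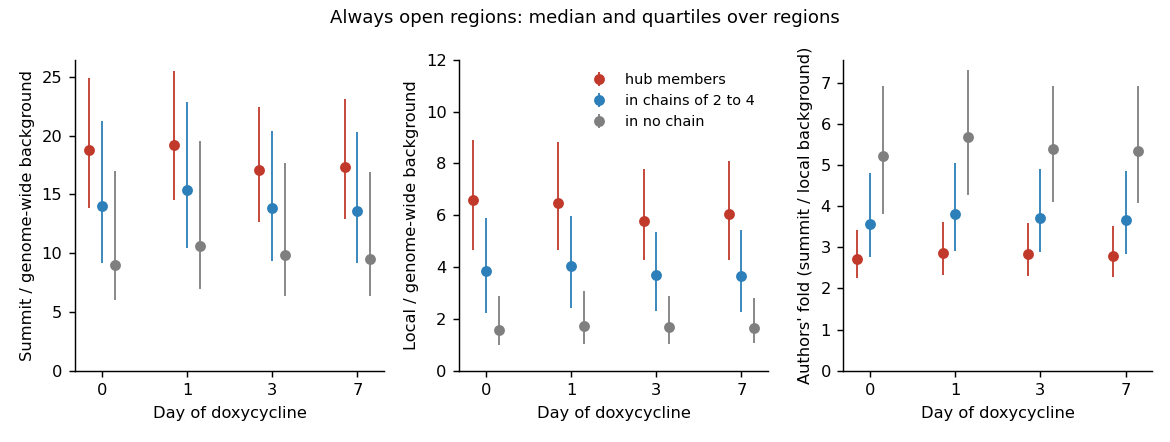
Medians (points) and quartiles (bars) over always open regions in hubs (red, 1826), in chains of 2 to 4 (blue, 21190) and in no chain (grey, 37770), by day. The panels give the summit over the genome-wide background, the local over the genome-wide background, and the authors' fold; hubs are highest in the first 2 (18.8 and 6.60 on day 0) and lowest in the third (2.72).

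Within hubs the inner members stood higher than the outer ones. The 1182 inner members had a median day 0 summit of 19.7 times the genome-wide background and a local background of 7.20, while the 644 first and last members had 17.5 and 5.45. Their folds were again reversed, at 2.61 inside and 2.96 at the edges. The rule fixed which members are inner, and no test was made.

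Summits of hub members moved little after induction. On day 1 the log2 change against day 0 had a median of 0.030 over members (SD 0.25). The median was -0.15 on day 3 (SD 0.29) and -0.093 on day 7 (SD 0.22). All always open regions had medians of 0.08, -0.08 and -0.04, so hub members lay 0.05, 0.06 and 0.05 below them, and the day 1 change turns to -0.053 when summits are scaled by the median of all always open regions. On day 3, 77.5% of members were lower than on day 0, against 59.3% of lone regions. The order depended on starting height. With a day 0 summit under 10 times the genome-wide background, medians of 160 hub members were 0.255, 0.146 and 0.130 on days 1, 3 and 7. Those of lone regions were 0.180, 0.062 and 0.056. At 20 times or more they were 0.013, -0.16 and -0.099 in hubs and 0.038, -0.14 and -0.068 at lone regions. From 10 to below 20 times hub members were also lower. The local background of the members fell along with the summits, by 0.19 on day 3 and by 0.13 on day 7 on the log2 scale, so that their folds changed by 0.038 on day 3 and 0.034 on day 7, opposite in sign. Counting error of the reads alone would give an SD of 0.20 on each day. All 3 comparisons share the day 0 list, and a region that had lost its peak on any day is not a member, which limits how far members could fall.

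Large rises were rare among members. A summit that had at least doubled since day 0 was found at 12 members on day 1 (0.657%, 0.340 to 1.15), beside 3.89% of all always open regions. On day 3 there were 11 (0.602%, 0.301 to 1.08), beside 4.02%, and on day 7 there were 3 (0.164%, 0.0339 to 0.479), beside 2.22%. Falls of at least 2-fold were found at 1, 2 and 2 members on days 1, 3 and 7, beside 0.00987%, 0.0707% and 0.0625% of all always open regions. These counts depend on the measure: with the sum of all summits in a region, rises numbered 21, 13 and 7 and falls 5, 24 and 11, so that falls outnumbered rises on days 3 and 7. By the authors' fold, rises numbered 1, 2 and 1 and falls 0, 0 and 0. Starting height differed between the classes and goes with these shares. Among regions whose day 0 summit was under 10 times the genome-wide background, 9 of 160 hub members were at least 2-fold higher on day 1 (5.63%, 2.60 to 10.4), against 8.24% (7.87 to 8.62) of 20799 lone regions. Among those at 20 times or more, it was 0 of 813 members and 0 of 7980 lone regions.

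The members that rose on all induced days started low. At chromosome 12, 6395867 to 6396669, the summit held 38 reads on day 0 and 126, 153 and 77 on days 1, 3 and 7. Scaled for depth, day 1 was 3.48-fold higher (exact conditional binomial 95% interval 2.40 to 5.14), day 3 was 3.80-fold higher (2.65 to 5.57) and day 7 was 2.11-fold higher (1.41 to 3.19). At chromosome 11, 45113470 to 45114114, the reads were 40 on day 0 and 104, 153 and 103 later, or 2.73-fold, 3.61-fold and 2.68-fold. At chromosome 10, 99291121 to 99292042, they were 50 on day 0 and 107, 142 and 103 later, or 2.25-fold, 2.68-fold and 2.14-fold. At chromosome 6, 110858257 to 110859150, they were 68 on day 0 and 138, 143 and 127 later, or 2.13-fold, 1.98-fold and 1.94-fold. Scaled for depth, day 3 was highest at the first 3 of these members and day 1 at the last. The intervals cover counting error only and do not allow for the choice among 1826 members, so the changes may be overstated.

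Members lower on all induced days were changed less. The rule limits this comparison, since a region that lost its peak on any day is not a member while rises have no such limit. By the weakest of the 3 daily changes, the lowest was chromosome 6, 28790911 to 28791566, with 53 reads on day 0 and 22, 35 and 23 on days 1, 3 and 7, or 0.436 (0.252 to 0.729), 0.623 and 0.451 of day 0. Chromosome 11, 35181695 to 35182140, fell from 79 reads to 49, 52 and 46, and chromosome 10, 21289846 to 21290955, from 93 reads to 62, 53 and 51. Chromosome 6, 82757857 to 82758925, the last member of a hub of 8, had 81 reads on day 0 and 41, 44 and 56 later, and its day 7 value of 0.719 (0.502 to 1.02) was within counting error of day 0.

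The changes of neighbouring members were positively correlated. Across 1504 neighbouring pairs in hubs, the log2 changes had a Pearson r of 0.33 on day 1, 0.36 on day 3 and 0.30 on day 7. In 11976 pairs in chains of 2 to 4 it was 0.33, 0.36 and 0.31. These pairs share members, depth and the day 0 list, so the values are a description. Within hubs the SD of the change was 0.21, 0.24 and 0.19 on days 1, 3 and 7. This was close to the 0.20 of counting error on days 1 and 7 and above it on day 3.

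Summed over each hub, summit reads scaled by the genome-wide background shifted downward on days 3 and 7. The median ratio to day 0 was 1.02 for day 1, with a range of 0.694 to 1.82 over the 322 hubs. For day 3 it was 0.904 (range 0.670 to 1.85), and for day 7 it was 0.936 (range 0.566 to 1.64). The interval of the ratio lay above 1 in 46, 19 and 6 hubs on days 1, 3 and 7. It lay below 1 in 15, 155 and 67, so on day 3 many hubs were lower by more than counting error at this scaling. These intervals are not adjusted for the 322 hubs compared. The shift was not confined to hubs: 62.2% of all always open regions were lower on day 3 and 58.4% on day 7, against 77.5% and 72.9% of hub members. Ratios of at least 1.5 were found in 4, 3 and 1 hubs, and ratios at or below the inverse of 1.5 in 0, 0 and 2. Every member was lower than on day 0 in 12 hubs on day 1, 112 on day 3 and 85 on day 7, and every member was higher in 36, 5 and 6. Of 9214 chains of 2 to 4, every region was lower in 931, 4132 and 3619 and higher in 4115, 1441 and 1476. Fewer regions have to move together in those chains, so their counts and those of hubs are not on equal terms.

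**Figure D5:**
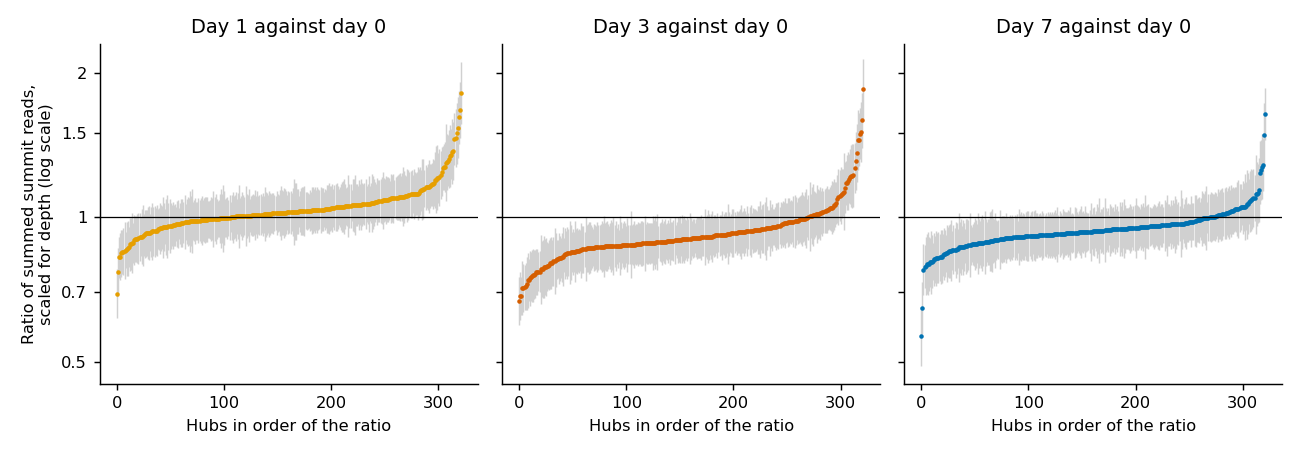
Summed summit reads of each hub's members on days 1, 3 and 7 over day 0, scaled by the genome-wide background (y axis, log scale), with the 322 hubs in order of the ratio (x axis). Grey bars are 95% intervals for counting error, and the medians are 1.02, 0.904 and 0.936.

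A few hubs stood away from the rest, and these 4 were chosen after their values were seen. The hub on chromosome 11, 45099653 to 45114114, had the highest ratio on day 1, at 1.82 (1.57 to 2.11), and on day 3, at 1.85 (1.60 to 2.14). All 5 of its members were higher on days 1, 3 and 7, with 44, 94, 52, 60 and 40 reads on day 0 and 98, 112, 95, 111 and 153 on day 3. It gained 0 regions without a day 0 peak. The hub on chromosome 6, 110838908 to 110859150, had the top day 7 ratio, at 1.64 (1.45 to 1.86), after 1.62 on day 1 and 1.45 on day 3. Its 6 members held 79, 56, 64, 77, 64 and 68 reads on day 0 and 97, 90, 96, 126, 108 and 127 on day 7, and a region without a day 0 peak at 110845616 to 110845847 held 80, 73 and 78 reads on days 1, 3 and 7, or 2.05 times its limit.

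The hub on chromosome 1, 172344049 to 172353390, was the lowest on days 1 and 3 and rose again by day 7. Its members held 185, 158, 117, 158 and 93 reads on day 0, then 99, 80, 75, 127 and 124 on day 3 and 155, 131, 102, 138 and 101 on day 7. The summed ratios were 0.694 (0.616 to 0.781), 0.670 (0.596 to 0.752) and 0.917 (0.822 to 1.02) in order of day, and 4 of the 5 members were lower on each day. The day 7 interval includes 1, and the median over all hubs on that day was 0.936. The hub on chromosome 5, 124708433 to 124722531, fell step by step instead, with ratios of 0.949 (0.840 to 1.07), 0.712 (0.626 to 0.810) and 0.566 (0.490 to 0.652). Its 5 members went from 158, 90, 137, 78 and 92 reads on day 0 to 110, 51, 66, 42 and 33 on day 7. The median fold of members on days 0, 1, 3 and 7 did not always follow these ratios. It was 2.54, 2.84, 3.13 and 2.57 in the chromosome 1 hub and 4.23, 4.19, 4.25 and 3.98 in the chromosome 5 hub. In the hubs that rose it was 2.44, 3.29, 3.19 and 3.01 on chromosome 11 and 3.89, 4.26, 3.76 and 3.65 on chromosome 6.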

How the data were processed

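ATAC-seq was done on 8 samples, 2 on each of days 0, 1, 3 and 7, grouped by their titles. Per the submitters' processing notes, the tools were Bowtie2, deepTools and MACS2 2.1.1.20160309 and the build was hg19. The sources used here do not give the read filters, any transposase offset or whether replicates were pooled. The deposited file joins 4 narrowPeak lists of 80744, 109876, 117606 and 103182 peaks (days 0, 1, 3 and 7). It gives the authors' score, the authors' fold (a ratio of summit to local background), the deposited p-value and q-value, each as -log10, and the authors' summit offset (another value, in bp).

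Summit reads and local background were recovered from fold, taken as (reads + 1) / (background + 1), and the Poisson -log10 p. Each of the 411408 peaks matched a whole number of reads within 0.000863. The most common background of a list, 6.34, 6.04, 6.73 and 6.10 reads, was taken as genome-wide and used to scale for depth. A region's value on a day is its highest summit. Regions inside a hub lie between its first and last member. Intervals are Clopper-Pearson, exact conditional binomial or exact Poisson at 95% and cover counting error only, without replicate error and with PCR copies counted as reads. No p-value was computed. The recovery of reads, the chain sizes and the counting of regions without a day 0 peak inside hubs were tested on simulated data. The other steps were not. Python 3.11.15, NumPy 2.4.6, pandas 2.3.3, SciPy 1.17.1 and matplotlib 3.10.9 were used, and coordinates are 1-based hg19.

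The members and comparisons were chosen with earlier results of these data known. Named were the 8 hubs with the most members and the 8 with the most regions lacking a day 0 peak, the 3 largest with 0 such regions, 8 sustained additions by their lowest fold (1 of which is given with its hub on chromosome 13), 4 members each of the strongest rise and fall on all induced days, 3 regions called on day 0 alone, and hubs and chains next to the limits. Alternatives were another gap, hub size, q limit, overlap, scaling or reference, and leaving out chromosomes 19 or 6.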

Additional observations from a re-analysis of the deposited data

How the results depend on the processing

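No paired analysis was possible because the file holds 1 peak list per day and no value per replicate, and for the same reason leaving out a replicate could not be run. Of 105 values under other settings, 55 stayed within the interval, the quartiles or 1.5 times the main value, 47 moved beyond them and 3 changed sign. The ratio of hubs to chains of 2 to 4, 1.09, moved to 0.482, 0.849 and 0.851 with gaps of at most 2500 bp and with hubs of at least 6 and 8, and stayed between 0.983 and 1.26 under the other settings run. Where the hub size was changed, the reference was all chains shorter than the hubs.

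Gaps of at most 2500 bp left 22 hubs, 114 members and 2 regions without a day 0 peak (0.00296% of all such regions), 0 of them on all induced days (0%), and a local background of 9.38. Gaps of at most 10000 bp gave 1574 hubs, 10855 members and 1628 such regions (2.41%). Hubs of at least 4 numbered 844 with 3914 members and 236 regions (0.350%), hubs of at least 6 numbered 134 with 886 and 52 (0.0770%), and hubs of at least 8 numbered 23 with 194 and 13 (0.0193%). With -log10 q of at least 5, which also redraws the hubs, 72 regions without a day 0 peak lay inside hubs (0.128%), of which 12.5% had a peak on days 1, 3 and 7. Counting only regions with a peak on all induced days gave 27 (0.142%), and only those with a fold of at least 6 gave 0 (0%).

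By the authors' fold the members' median log2 changes were 0.050, 0.038 and 0.034 for days 1, 3 and 7, against 0.030, -0.15 and -0.093. By fold, 1, 2 and 1 members were at least 2-fold higher and 0, 0 and 0 lower. Scaling by the median of all always open regions gave -0.053, -0.065 and -0.052, and 0 members at least 2-fold lower on day 3. With the sum of all summits in a region, 21 members were at least 2-fold higher on day 1 and 7 on day 7, and 5, 24 and 11 were lower on days 1, 3 and 7. Where no value shows it, the cause was not tested. At the members' median background, a day 0 summit needed 69 reads to be called in hubs and 24 at lone regions.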

Other observations

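The hub of 11 members on chromosome 7, 38370439 to 38414406, had mostly long gaps. Of its 10 gaps, 9 were of 3000 bp or more, and the largest was 4734 bp. Among the 23 hubs of 8 or more members the next highest share was 71.4%, in a hub on chromosome 5, and the median was 42.9%. It was singled out after its values were seen. Its 11 members were each called in every list, and its summed summits were 1.12 (1.02 to 1.23), 0.983 (0.897 to 1.08) and 0.976 (0.888 to 1.07) times day 0 on days 1, 3 and 7. Whether reads map uniquely along this hub was not examined.

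The hub of 8 members on chromosome 6, 82726600 to 82758925, was lower than on day 0 at all of its members on days 1, 3 and 7. Its summed ratios were 0.868 (0.790 to 0.954), 0.771 (0.702 to 0.848) and 0.855 (0.778 to 0.939). These intervals are not adjusted for the choice of this hub among 322. Every member was lower in 12, 112 and 85 hubs on days 1, 3 and 7. The hub held 0 regions without a day 0 peak. Its median local background also fell, from 4.12 times the genome-wide value on day 0 to 3.44, 3.29 and 3.72. The median fold of its members was 4.63 on day 0 and 5.19, 4.87 and 4.58 on days 1, 3 and 7, so the fold did not show the same fall.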
